A study of Homo sapiens with 8 samples.

Results

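The guides against 10 genes of the step by which a cell leaves G1 and enters S phase were followed in a pooled knockout screen of triple-negative breast cancer cells. The genes are CCND1, CCND2, CCND3, CDK4, CDK6, CCNE1, CCNE2, CDK2, RB1 and CDKN1B. Guides were chosen by the target gene given in the deposited table, by a rule that uses no measured value, although these genes were picked with earlier results of the screen known, and 60 of the 111627 gene-targeting guides belong to these genes, 6 for each. A mean count of at least 10 over the libraries was needed for a guide to be tested, and 59 of the 60 passed. The exception was 1 guide against CDK2, HGLibB_08747, which had a count of 13 in DMSO replicate 3 and of 0 in each of the other 7 libraries. Guides are named by their library identifiers, and their sequences and cut sites were not analysed here.

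Cells pass from G1 into S phase when cyclin-dependent kinases phosphorylate the retinoblastoma protein RB1, which otherwise holds back the E2F factors that switch on genes for DNA replication. The D cyclins activate the kinases CDK4 and CDK6 in response to growth signals, and the E cyclins activate CDK2 later in G1. CDKN1B encodes p27, an inhibitor of the cyclin E and CDK2 complex. In a knockout screen, guides against a gene that cells need for growth lose abundance with time, and guides against a brake on growth gain it. CCND1 is also a known Notch target gene, and Notch is the pathway that the inhibitor of this study blocks.

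The cells were MB157R, derived from the NOTCH1-driven line MB157 by chronic exposure to a γ-secretase inhibitor (GSI), which stops the cleavage that releases active Notch. All groups carried Cas9 and the human GeCKOv2 guide library, parts A and B, and had been selected with blasticidin and puromycin. The GSI group was 3 cultures grown for 14 days with LY3039478 at 10 µM, the DMSO group was 3 cultures grown with vehicle for the same time, and the T0 group was 2 untreated aliquots taken after selection. All 8 libraries came from genomic DNA of 1 resistant line, whose transduced cells had been combined into 1 pool after selection. The p-values of single guides thus measure the spread between cultures or aliquots of that pool, which may be technical.

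Total counts ran from 12.1 M to 18.2 M per library (M, 1e+06), and median counts per guide from 66 to 112. In GSI replicate 1, a single guide against VPS33B held 38.8% of all counts, a share that median-ratio scaling does not take as depth. The rank correlation between the T0 aliquots was 0.382, the lowest of all library pairs, and that between GSI replicate 1 and DMSO replicate 1 was 0.818, the highest and above every pair within a group (at most 0.733). Many values are therefore given with and without one of these 4 libraries. The T0 aliquots were over 4-fold apart for 18 of the 59 guides tested here, and for 33.5% of all gene-targeting guides.

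None of the 10 genes passed the test in any of the 3 comparisons. The test was robust rank aggregation (RRA) on guide tests in edgeR. It asks whether the guides of a gene rank lower, or higher, than guides ranked at random would. Its p thus measures agreement between guides, which it takes as independent although all were read in the same libraries. With p-values adjusted by the Benjamini-Hochberg method over the 18570 genes tested, 0 genes were called on either side in GSI against DMSO and in GSI against T0 (0% in each case), and 6 genes, or 0.0323%, were called lower in DMSO against T0. At an unadjusted p under 0.05, 1 of the 10 genes was on the low side in GSI against DMSO (CDK6), where 5.06% of all genes were, 2 in DMSO against T0 (CCND1 and CDK2), where 6.12% were, and 1 in GSI against T0 (CCND1), where 5.70% were. No member was on the high side at that level, where 4.99%, 5.30% and 5.39% of all genes were. The lowest adjusted p over all members and comparisons was 0.671, for CCND1 in GSI against T0.

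By direction alone, most members lay below T0, but this rested on T0 replicate 2. For a gene, fold change here stands for the middle log2 value among those of its guides. In GSI against T0, 9 of the 10 genes had a negative fold change, against 51.3% of all genes, and their median was −0.35, against −0.02 for all genes. DMSO against T0 gave 8 of 10 negative, against 49.6% of all genes, with a median of −0.63, against 0.00 over all genes. Of the 59 guides, 42 were negative in GSI against T0 (71.2%, against 51.0% of all gene-targeting guides) and 38 in DMSO against T0 (64.4%, against 50.1%). These 2 comparisons share the T0 libraries and are not independent of each other. Without T0 replicate 2, 5 of the 10 genes were negative in each, with a median of −0.04 in GSI against T0 (0.08 over all genes) and −0.02 in DMSO against T0 (0.11 over all genes). Without T0 replicate 1, 8 of the 10 were negative in each, with medians of −0.57 in GSI against T0 and −0.48 in DMSO against T0. The median in DMSO against T0 was −0.39 without DMSO replicate 2 and −0.42 without DMSO replicate 3. GSI against DMSO split evenly, with 5 of the 10 genes negative, against 52.7% of all genes, a median of −0.01 over the members and −0.02 over all genes. The count was 9 of 10 with library totals as size factors, where the median of all genes was −0.22, 4 of 10 with control-based factors, and 3 to 7 of 10 when 1 library was left out.

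For scale, the 75 cytosolic ribosomal protein genes tested, needed in nearly all cells, had a median gene fold change of −0.82 in GSI against T0 and −1.10 in DMSO against T0. The 366 olfactory receptor genes, not needed in such cells, stood at 0.09 and 0.12 in these comparisons. In GSI against DMSO the ribosomal protein genes stood at 0.25 and the olfactory receptor genes at −0.01, against −0.02 for all genes. There 30.7% of the ribosomal protein genes were negative, against 52.7% of all genes. Among 999 non-targeting controls the middle guide stood at 0.18 in GSI against T0 and at 0.25 in DMSO against T0. With size factors taken from these controls, the median of all genes in DMSO against T0 was −0.25 in place of 0.00, and the members shifted with it, to −1.07 for CCND1, −1.12 for CDK4 and −1.04 for CCNE2.

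CCND1 (chromosome 11, 69641156 to 69654474 in GRCh38), which encodes cyclin D1, had the lowest p of the 10 genes on the low side of both comparisons with T0. Its level, taken per library as the middle log2(normalized count + 1) among the guides minus the mean of both aliquots, was −1.53, −0.73 and −1.57 in GSI replicates 1 to 3, −0.75, −1.04 and −0.75 in DMSO replicates 1 to 3, and 0.10 and −0.10 in the T0 aliquots. All 6 day 14 libraries thus lay below both T0 aliquots, and the GSI and DMSO libraries overlapped. The fold change was −1.09 ± 0.67 in GSI against T0 (SD over 6 guides, 5 of them negative) and −0.80 ± 0.78 in DMSO against T0 (4 of 6 negative). These values stood at percentiles 2.78 and 7.99 of all genes. The RRA p on edgeR guide tests was 0.0137 in GSI against T0 (adjusted p = 0.671) and 0.0294 in DMSO against T0 (adjusted p = 0.693), ranks 377 and 786 of 18570.

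Summed over all 6 CCND1 guides, normalized counts (raw counts divided by the size factor of the library) were 644, 729 and 576 with GSI, 728, 684 and 841 with DMSO, and 1263 and 1322 at T0. The T0 aliquots were close to each other in this sum, and every day 14 library lay below both. This sum was chosen after seeing the data. By such sums 19.2% of all genes were lower than both aliquots in all GSI libraries, and 17.1% in all DMSO libraries. As a log2 ratio of group means the sum stood at −0.99 for GSI against T0 and −0.78 for DMSO against T0. The guide with the lowest p in DMSO against T0 was HGLibA_08073, with normalized counts of 203, 108 and 92.3 with DMSO, against 274 and 441 at T0. Its log2 fold change was −1.41 ± 0.56 (SE, unadjusted p = 0.0297 in edgeR). In GSI against T0, HGLibB_08065 had 79.5, 154 and 83.5 with GSI, against 373 and 246 at T0, at −1.55 ± 0.52 (SE, unadjusted p = 0.0164). Unlike these, HGLibA_08071 had 175, 186 and 202 with GSI, 185, 187 and 277 with DMSO, and 191 and 158 at T0, with day 14 and T0 libraries overlapping in both arms.

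GSI against DMSO put CCND1 at −0.39 ± 0.52, with 5 of 6 guides negative, at percentile 8.28 of all genes (RRA p on the low side 0.197, adjusted p = 0.988). The lowest guide p was that of HGLibB_08065, whose normalized counts were 79.5, 154 and 83.5 with GSI, against 124, 227 and 148 with DMSO, an overlap of 1 GSI library with 2 DMSO libraries. Without T0 replicate 2, CCND1 stood at −0.60 in GSI against T0 (RRA p on edgeR guide tests 0.0276, adjusted p = 0.800), and without T0 replicate 1 at −1.12 (0.0693, adjusted p = 0.935). In DMSO against T0 the value was −0.70 without T0 replicate 2 (RRA p 0.0790, adjusted p = 0.922) and −0.31 without T0 replicate 1 (RRA p 0.0375, adjusted p = 0.836), where the median of all genes was 0.23. The fold change of CCND1 was negative in all 14 alternatives of GSI against DMSO and all 13 of each comparison with T0. Its p was under 0.05 in 12 of 13 alternatives of GSI against T0 (adjusted p at least 0.539) and in 8 of 13 of DMSO against T0 (adjusted p at least 0.632).

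CCND2 (chromosome 12, 4269771 to 4305353), the gene of cyclin D2, lay close to the middle of all genes. Its level was −0.24, −0.95 and −0.34 with GSI, 0.04, −0.34 and −0.11 with DMSO, and −0.33 and 0.33 at T0. The 3 groups overlapped with each other in each pair. Its fold change was −0.06 ± 0.51 in GSI against DMSO (SD over 6 guides), −0.11 ± 0.57 in DMSO against T0 and −0.36 ± 0.82 in GSI against T0, with RRA p-values from 0.227 to 0.767 on both sides. Without T0 replicate 2 it stood at 0.30 in DMSO against T0 and 0.09 in GSI against T0, and without T0 replicate 1 at −0.37 and −0.73. The guide that differed most between the arms was HGLibB_08067, with normalized counts of 119.9, 100.1 and 63.7 with GSI, against 262, 135 and 125 with DMSO. Its 3 GSI libraries lay below all DMSO libraries (−0.88 ± 0.50, SE, unadjusted p = 0.0952). HGLibA_08074 had the lowest p in DMSO against T0, with 213, 309 and 241 with DMSO, against 229 and 132 at T0 (0.49 ± 0.53, SE, unadjusted p = 0.373).

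CCND3 (chromosome 6, 41934934 to 42050357), which encodes cyclin D3, had its level spread on both sides of T0. It stood at 0.13, −0.73 and 0.25 with GSI, at 0.35, −0.23 and 0.24 with DMSO, and at −0.78 and 0.78 at T0. The T0 aliquots were thus 1.57 apart, wider than all 6 day 14 libraries. The fold change was 0.05 ± 0.58 in GSI against DMSO, 0.00 ± 0.38 in DMSO against T0 and 0.10 ± 0.75 in GSI against T0 (SD over 6 guides). The values against T0 rested on single aliquots, at 1.10 without T0 replicate 2 and −0.51 without T0 replicate 1 in GSI against T0, and at 0.81 and −0.59 in DMSO against T0. HGLibB_08070 had the aliquots far apart, with 0.837 normalized counts (a raw count of 1) in T0 replicate 1 and 242 in T0 replicate 2. The same guide had 12.1, 46.1 and 81.5 with GSI, against 6.57, 109 and 179 with DMSO, the lowest guide p of the gene in GSI against DMSO (−1.07 ± 0.87, SE, unadjusted p = 0.236). HGLibA_08077, lowest in DMSO against T0, had 152, 199 and 199 with DMSO, against 252 and 317 at T0 (−0.63 ± 0.49, SE, unadjusted p = 0.227).

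CDK4 (chromosome 12, 57747727 to 57756013), the main kinase partner of the D cyclins, had a fold change of −0.86 ± 2.23 in DMSO against T0 (SD over 6 guides, RRA p on the low side 0.138, adjusted p = 0.997). The level was −0.96, −0.81 and −0.71 with DMSO, against −0.20 and 0.20 at T0, so that all DMSO libraries lay below both aliquots. With GSI it was −1.56, −0.51 and 0.05, a wider spread that overlapped both the DMSO and the T0 libraries. The fold change was −0.19 ± 1.98 in GSI against T0 and −0.05 ± 0.53 in GSI against DMSO. Against T0 its guides lay on opposite sides, 4 negative and 2 positive in each comparison.

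Among CDK4 guides, HGLibB_08764 had normalized counts of 35.0, 24.6 and 126 with GSI, 92.0, 27.1 and 103 with DMSO, and 341 and 152 at T0. All day 14 libraries lay below the aliquots, at −1.99 ± 0.81 in GSI against T0 (SE, unadjusted p = 0.0371) and −1.74 ± 0.77 in DMSO against T0 (unadjusted p = 0.0479). On the opposite side, HGLibA_08771 had 31.0, 71.5 and 42.8 with GSI, 54.8, 91.2 and 74.0 with DMSO, and 6.69 and 0 at T0. Its raw T0 counts were 8 and 0, and its value in DMSO against T0 was 4.39 ± 1.81 (SE, unadjusted p = 0.0359), the largest of all 59 guides in that comparison. Between the arms the lowest p was that of HGLibB_08762, at 66.0, 142 and 174 with GSI, against 58.1, 73.1 and 72.9 with DMSO (0.91 ± 0.57, SE, unadjusted p = 0.127). Without T0 replicate 1 the CDK4 fold change in DMSO against T0 was 0.08, where the median of all genes was 0.23. That in GSI against T0 was 0.15, where it was 0.20. Without T0 replicate 2 CDK4 stood at −0.84 in DMSO against T0, where the median of all genes was 0.11. In GSI against T0 it then stood at −0.16, where that median was 0.08.

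CDK6 (chromosome 7, 92604921 to 92836573), the other kinase of the D cyclins, had the lowest p of the 10 genes in GSI against DMSO. Its level was −0.70, −0.15 and −0.65 with GSI, 0.23, 0.08 and 0.00 with DMSO, and −0.14 and 0.14 at T0. All GSI libraries lay below all DMSO libraries, which held for 1 of the 10 members and for 4.45% of all genes. They also lay below both aliquots, in GSI replicate 2 only just, and the DMSO libraries overlapped the T0 range. The fold change in GSI against DMSO was −0.32 ± 0.76 (SD over 6 guides, 4 of them negative), at percentile 13.5 of all genes. The RRA p on edgeR guide tests was 0.00228, rank 36 of 18570, and the adjusted p was 0.959.

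This low p came from 2 of the 6 CDK6 guides. HGLibB_08785 had normalized counts of 49.8, 65.2 and 75.2 with GSI, against 129, 172 and 157 with DMSO, with 85.3 and 263 at T0. The GSI libraries lay below every DMSO and T0 library, at −1.26 ± 0.53 in GSI against DMSO (SE, unadjusted p = 0.0259). HGLibA_08791 had 40.4, 39.7 and 40.7 with GSI, against 30.7, 176 and 172 with DMSO, with 37.6 and 0 at T0. DMSO replicate 1 was at the GSI level in this guide, whose value was −1.65 ± 0.68 (SE, unadjusted p = 0.0255). The other 4 guides stood at −0.49, −0.14, 0.03 and 0.25, each with an unadjusted p of at least 0.316. Guides with an unadjusted p under 0.05 on the low side made up 2 of the 59 guides of the members and 1.46% of all guides tested.

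In the comparisons with T0, CDK6 had a fold change of −0.35 ± 0.86 with GSI (RRA p on the low side 0.128, adjusted p = 0.988) and −0.14 ± 1.26 with DMSO, the second of which was 0.24 without T0 replicate 2. HGLibB_08784 had the lowest guide p in DMSO against T0, at 279, 269 and 190.2 with DMSO, against 579.8 and 323 at T0 (−0.87 ± 0.46, SE, unadjusted p = 0.0874). The RRA p of CDK6 in GSI against DMSO was 0.0542 without GSI replicate 1, at a fold change of −0.52, and 0.00923 without DMSO replicate 1, where the median fold change was only −0.01. Over the 14 alternative fits of GSI against DMSO the p ran from 0.00200 to 0.0602, and it was under 0.05 in 12 of them. The fold change was negative in all 14, and the adjusted p was at least 0.903.

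CCNE1 (chromosome 19, 29811991 to 29824312), which encodes cyclin E1, was below the T0 mean in all day 14 libraries. The level was −0.59, −1.13 and −1.06 with GSI, −0.38, −0.84 and −1.83 with DMSO, and 0.47 and −0.47 at T0. All GSI libraries lay below both aliquots, while DMSO replicate 1 stood between them. All 6 guides were negative in GSI against T0, at −0.52 ± 0.57, and 5 of 6 in DMSO against T0, at −0.81 ± 0.60 (SD over guides). The RRA p on the low side was 0.242 and 0.247 in these comparisons (adjusted p = 1.00 for both). Without DMSO replicate 1, DMSO against T0 was −1.38 (RRA p 0.00634, adjusted p = 0.456). HGLibA_08083, the lowest in DMSO against T0, had normalized counts of 36.4, 76.3 and 40.7 with GSI, 19.7, 116 and 27.3 with DMSO, and 218 and 134 at T0. It was at −1.77 ± 0.71 in GSI against T0 (SE, unadjusted p = 0.0348) and −1.68 ± 0.95 in DMSO against T0 (unadjusted p = 0.108). In GSI against DMSO the gene stood at 0.04 ± 0.33, with the lowest guide p of 0.467 for HGLibA_08084, at 51.2, 64.4 and 58.5 with GSI, against 52.6, 53.3 and 3.42 with DMSO. That gene value was 0.65 without DMSO replicate 1 (RRA p on the high side 0.0453, adjusted p = 0.955), and its sign turned in 5 of 14 alternatives.

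CCNE2 (chromosome 8, 94879770 to 94896678), the gene of cyclin E2, had a fold change of −0.78 ± 1.16 in DMSO against T0 and of −0.22 ± 1.03 in GSI against T0 (SD over 6 guides). Its level was −0.68, −1.16 and 0.18 with GSI, −0.31, −0.94 and −0.81 with DMSO, and −0.04 and 0.04 at T0. The DMSO libraries lay below both aliquots, and GSI replicate 3 lay above them. RRA p-values on the low side were 0.157 with DMSO and 0.267 with GSI, each against T0. The strongest guide was HGLibA_08088, with normalized counts of 24.2, 17.5 and 19.8 with GSI, 5.48, 39.7 and 21.6 with DMSO, and 184 and 55.0 at T0. Every day 14 library was below the aliquots, at −2.54 ± 0.97 in GSI against T0 (SE, unadjusted p = 0.0282) and −2.41 ± 1.21 in DMSO against T0 (unadjusted p = 0.0737).

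HGLibB_08081 was a second CCNE2 guide with every day 14 library below both aliquots. It had 32.3, 31.8 and 36.6 with GSI, 21.9, 20.8 and 11.4 with DMSO, and 44.3 and 123 at T0. It was the 1 guide of the 59 in which all GSI libraries lay above all DMSO libraries, as did 4.69% of all gene-targeting guides. Its value in GSI against DMSO was 0.89 ± 1.07 (SE, unadjusted p = 0.415). The lowest p between the arms was that of HGLibA_08086, with 83.5, 99.3 and 131 with GSI, against 86.6, 3.61 and 49.0 with DMSO (1.17 ± 0.79, SE, unadjusted p = 0.153). This guide had 91.2 and 102 at T0, above all its DMSO libraries. As a gene, CCNE2 stood at 0.14 ± 0.71 in GSI against DMSO, with an RRA p of 0.174 on the high side (adjusted p = 0.981).

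CDK2 (chromosome 12, 55966781 to 55972789), the kinase of the E cyclins, had the most negative fold change of the members in DMSO against T0. It was −1.47 ± 1.51 (SD over 5 guides, 4 of them negative), at percentile 1.79 of all genes, with an RRA p of 0.0405 on the low side (adjusted p = 0.769). With GSI the value against T0 was −0.61 ± 1.21 (RRA p 0.591, adjusted p = 1.00). GSI against DMSO put CDK2 at 0.71 ± 0.83, at percentile 98.5 of all genes and higher than all 65 genes within 1000000 bases of it, with an RRA p of 0.223 on the high side (adjusted p = 0.981). Only 3 of its 5 tested guides were positive in that comparison, at 0.71, 0.86 and 1.41.

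The level of CDK2 guides was 1.25, 0.58 and −0.23 with GSI, −1.31, −0.82 and 0.23 with DMSO, and −0.29 and 0.29 at T0. The groups overlapped in each pair, and GSI replicate 3 lay below DMSO replicate 3. In GSI against T0 the mean level, at 0.53, and the fold change, at −0.61, differed in sign. HGLibA_08754 had the lowest guide p both in GSI against DMSO and in DMSO against T0. Its normalized counts were 145, 100.1 and 42.8 with GSI, 19.7, 28.0 and 60.4 with DMSO, and 223 and 61.7 at T0. The DMSO libraries lay below both aliquots, at −1.98 ± 1.01 (SE, unadjusted p = 0.0806), and GSI against DMSO was 1.41 ± 0.74 (SE, unadjusted p = 0.0690). HGLibB_08748 opposed the other CDK2 guides against T0, with 155, 188 and 138 with GSI, 211, 198 and 141 with DMSO, and 5.86 and 99.7 at T0.

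The CDK2 values depended on single libraries and on the filter for guides. Without GSI replicate 1, GSI against DMSO was −0.08 in place of 0.71. In DMSO against T0 the fold change was −0.78 without T0 replicate 1 (RRA p 0.304) and −0.28 without T0 replicate 2 (RRA p 0.193). In GSI against T0 it was −1.25 without GSI replicate 1 and 0.58 without T0 replicate 2. When the filter was dropped, so that HGLibB_08747 was kept, CDK2 stood at 0.26 in GSI against DMSO. In DMSO against T0 it then stood at −1.26 (RRA p on the low side 0.0884). Raising the required mean from 10 to 50 gave 0.34 in GSI against DMSO. That stricter filter gave −1.27 in DMSO against T0 (RRA p on the low side 0.0842). As a sum over all 6 guides, which weights abundant guides more and was chosen after seeing the data, CDK2 had 471, 399.7 and 239 normalized counts with GSI, 308, 343 and 313 with DMSO, and 438 and 419 at T0. The DMSO sums lay below both aliquots by a log2 ratio of −0.42, and the GSI sums spanned the values of the other groups.

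RB1 (chromosome 13, 48303744 to 48599436), the brake on E2F factors that CDK4, CDK6 and CDK2 release, had no guides that passed the test on the high side. Its level was −0.03, 0.00 and 0.15 with GSI, 0.01, 0.04 and 0.94 with DMSO, and 0.33 and −0.33 at T0. All 6 day 14 libraries except DMSO replicate 3 stood between the T0 aliquots. The fold change was −0.11 ± 0.60 in GSI against DMSO, 0.08 ± 1.31 in DMSO against T0 and −0.15 ± 1.65 in GSI against T0 (SD over 6 guides). On the high side the RRA p was 0.724, 0.686 and 0.449 in that order. In DMSO against T0, RB1 stood at 1.18 without T0 replicate 1, where the median of all genes was 0.23, at 0.59 without T0 replicate 2, where it was 0.11, and at −0.18 with control-based size factors, where it was −0.25. GSI against T0 gave 0.82 without T0 replicate 1 and 0.70 without T0 replicate 2, with an RRA p of at least 0.165 on the high side in these fits.

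The most abundant RB1 guide, HGLibA_40413, was steady, with normalized counts of 289.6, 437 and 522 with GSI, 473, 524 and 377 with DMSO, and 436 and 341 at T0. HGLibA_40412 had the lowest p of the gene in DMSO against T0. It had 0, 34.3 and 30.8 with DMSO, against 4.18 and 0.949 at T0, where the raw counts were 5 and 1 (3.01 ± 2.50, SE, unadjusted p = 0.256). With GSI this guide had 22.9, 14.3 and 64.7, above both aliquots in every library (3.66 ± 1.76, SE, unadjusted p = 0.0683). Between the arms the lowest p was that of HGLibB_40363, with 37.7, 31.8 and 59.5 with GSI, against 26.3, 48.7 and 186 with DMSO (−1.01 ± 0.77, SE, unadjusted p = 0.206).

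CDKN1B (chromosome 12, 12685498 to 12722369), the gene of the inhibitor p27, likewise had no guides that passed the test on the high side. Its level was −0.01, −0.57 and 0.08 with GSI, 0.07, −2.17 and −0.26 with DMSO, and −1.03 and 1.03 at T0. The aliquots were 2.06 apart, the widest of the 10 genes, and 5 of the 6 day 14 libraries lay between them. The fold change was 0.18 ± 1.39 in GSI against DMSO, −0.48 ± 0.94 in DMSO against T0 and −0.36 ± 0.91 in GSI against T0 (SD over 6 guides). RRA p-values were at least 0.408 on both sides of the 3 comparisons. Without T0 replicate 2 the value was 1.14 in GSI against T0, with an RRA p of 0.0875 on the high side, and 0.68 in DMSO against T0. Without T0 replicate 1 it was −0.82 in GSI against T0 and −0.83 in DMSO against T0. GSI against DMSO gave 0.59 without DMSO replicate 1.

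Some CDKN1B guides were at or near 0 in several libraries. HGLibB_08817, the lowest p in DMSO against T0, had normalized counts of 0, 4.51 and 22.8 with DMSO, against 91.2 and 1.90 at T0 (−2.35 ± 2.12, SE, unadjusted p = 0.296). HGLibA_08824, the lowest in GSI against DMSO, had 16.2, 0 and 1.04 with GSI, against 52.6, 0 and 42.1 with DMSO (−2.49 ± 1.69, SE, unadjusted p = 0.157). The abundant guide HGLibB_08816 had 252, 321 and 188 with GSI, 378, 153 and 147 with DMSO, and 142 and 404 at T0, so that all day 14 libraries lay within the T0 range.

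Ordered by mean level relative to T0, the DMSO cultures ran from CCNE1 (−1.02 ± 0.74) over CCND1 (−0.85 ± 0.17), CDK4 (−0.83 ± 0.13), CDKN1B (−0.79 ± 1.21), CCNE2 (−0.69 ± 0.34), CDK2 (−0.63 ± 0.79), CCND2 (−0.14 ± 0.19), CDK6 (0.10 ± 0.12) and CCND3 (0.12 ± 0.31) to RB1 (0.33 ± 0.53, SD over 3 libraries each). Neighbours in this order were closer than the larger of their SDs at every step but that between CCND2 and CDK6. The GSI cultures ran from CCND1 (−1.28 ± 0.47) over CCNE1 (−0.93 ± 0.29), CDK4 (−0.67 ± 0.82), CCNE2 (−0.55 ± 0.68), CCND2 (−0.51 ± 0.39), CDK6 (−0.50 ± 0.31), CDKN1B (−0.17 ± 0.35), CCND3 (−0.12 ± 0.53) and RB1 (0.04 ± 0.09) to CDK2 (0.53 ± 0.74), and no neighbours were further apart than the larger of their SDs. By level, 3 members lay below both T0 aliquots in all GSI libraries (CDK6, CCND1 and CCNE1), as did 13.7% of all genes. In all DMSO libraries 3 did so (CDK4, CCND1 and CCNE2), again with 13.7% of all genes. CCND1 was the only member in both, and both arms were read against the same T0 aliquots. The share of all genes lower in both arms was not counted, so whether this overlap is unusual was not tested. No member lay above its comparison group in all libraries by level, as 4.90% of all genes did in GSI against DMSO, 14.8% in DMSO against T0 and 16.0% in GSI against T0. By summed counts no member was separated in GSI against DMSO, where 5.84% of all genes were lower and 3.75% higher in all GSI libraries. Against T0, the sums of CDK6, CCND1 and CCNE1 were lower in all GSI libraries (19.2% of all genes were) and those of CCND1, CDK2 and CCNE2 in all DMSO libraries (17.1% were).

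At the level of single guides, 11 of the 59 lay below both T0 aliquots in all GSI libraries, where 13.8% of gene-targeting guides did, and 4 lay above, where 15.7% did. With DMSO 12 lay below, against 13.2% of all, and 2 above, against 14.9%. Between the arms 2 guides were lower in all GSI libraries (HGLibB_08785 of CDK6 and HGLibB_08067 of CCND2), against 4.37% of all. No guide of the members passed an adjusted p of 0.05 in edgeR in any comparison, and of all 116852 guides tested 0 did (0%). By DESeq2, 3 of 59 did in GSI against T0, where 6.77% of all guides did, 1 of 59 in DMSO against T0, where 5.70% did, and 0 in GSI against DMSO, so that the members' shares were no higher than that of all guides. At an unadjusted p under 0.05, 0 guides were higher in GSI against DMSO (1.55% of all guides were). In GSI against T0, 5 were lower and 0 higher (3.99% and 4.72% of all guides), and 2 were lower and 1 higher in DMSO against T0 in edgeR (3.55% and 4.19% of all guides). The 5 guides were those of CDK4, CCNE1 and CCNE2 described above and HGLibA_08072 and HGLibB_08065 of CCND1.

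By role, the 5 genes of the D cyclins and their kinases had a median gene fold change of −0.35 in GSI against T0, −0.14 in DMSO against T0 and −0.06 in GSI against DMSO. The 3 genes of the E cyclins and CDK2 stood at −0.52, −0.81 and 0.14 in these comparisons. Of their 17 guides, 15 were negative in GSI against T0 and 13 in DMSO against T0. RB1 and CDKN1B together had 8 of 12 guides negative in GSI against T0 and 7 of 12 in DMSO against T0. Of all gene-targeting guides, 51.0% and 50.1% were negative in these 2 comparisons. Without T0 replicate 2, CDK2 stood at 0.58 in GSI against T0, CCNE1 at −0.57 and CCNE2 at −0.35. Library part A and part B gave medians of −0.27 over 30 guides and −0.62 over 29 guides in GSI against T0, and of −0.33 and −0.31 in DMSO against T0, against −0.03, −0.02, −0.06 and 0.05 over all gene-targeting guides in the same order.

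Of 36 further genes of the same step, among them the INK4 and CIP inhibitors, the pocket proteins, E2F factors and the ubiquitin ligase that destroys p27, 0 passed the test on either side in any comparison. Their median fold change was −0.12 in GSI against T0, −0.04 in DMSO against T0 and −0.09 in GSI against DMSO. In DMSO against T0, 4 of 36 had an unadjusted RRA p under 0.05 on the low side (6.12% of all genes) and 3 on the high side (5.30%). The 4 were E2F3, an activating E2F, at −1.95 ± 1.35 with all 5 guides negative (adjusted p = 0.309), RBX1 and SKP1, subunits of the SCF ubiquitin ligase, at −1.81 ± 1.14 and −1.0 ± 1.91 with all 6 guides of each negative, and CDC25A, the phosphatase that activates CDK2, at −0.94 ± 2.45. On the high side were E2F2 at 1.70 ± 2.67, FBXW7, the ligase subunit that targets cyclin E, at 1.21 ± 2.91, and TFDP2 at 0.21 ± 3.89 (SD over guides).

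In GSI against T0, 2 of the 36 were on the low side (5.70% of all genes), E2F3 at −2.25 ± 0.95 with all 5 guides negative (adjusted p = 0.559) and TFDP1, the dimer partner of E2F factors, at −0.63 ± 1.96. On the high side were 4 (5.39% of all genes), which were CDKN2D at 2.61 ± 4.35, E2F2 at 1.51 ± 3.22, FBXW7 at 1.16 ± 2.79 and CDKN1A, the gene of the inhibitor p21, at 0.79 ± 1.32. GSI against DMSO had 1 of the 36 on the low side (5.06% of all genes), TFDP2 at −0.27 ± 3.14. On the high side were 2 (4.99% of all genes), CCNA2 and CDK7. CCNA2, the gene of the S phase cyclin A2, stood at 2.0 ± 1.54 over 4 guides (RRA p 0.00249, adjusted p = 0.746). CDK7, the kinase that activates other CDKs, stood at −0.13 ± 1.31, where the median and the side of the test differ in sign.

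The genes around each member were read as well, and of the 18570 genes tested, 98.8% had a position. CCND1 was lower in GSI against T0 than all 17 genes within 1000000 bases of it, whose median was −0.16, and in DMSO against T0 it was −0.80, beside a median of −0.33, with 4 of the 17 below it. CCNE1 had 7 such neighbours, with a median of −0.25 in GSI against T0 and −0.60 in DMSO against T0, near its own values of −0.52 and −0.81. The 40 neighbours of CDK4 and the 65 of CDK2 had medians of −0.10 and −0.04 in DMSO against T0. CDKN1B was likewise lower in DMSO against T0 than all 16 of its neighbours, at −0.48 beside a median of 0.08. That value stood at percentile 18.4 of all genes and was 0.68 without T0 replicate 2. In the same comparison 6 of 17 neighbours lay below CDK6, 4 of 15 below CCND2 and 19 of 35 below CCND3. For CCNE2 it was 2 of 12 and for RB1 3 of 10. Each member was read in 3 comparisons, and no rank among neighbours was tested.

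Likeness of profile was measured by Pearson's r of the log2 level over the 8 libraries against 18569 other genes. The profile of CCND1 was most like those of DTYMK (r = 0.950), CPXCR1 (0.944) and HOXD13 (0.941), and that of CDK4 most like those of TIGD6 (0.948), ZNF219 (0.934) and POLE4 (0.934). The libraries share 1 pool and their depth, and so many genes were compared that these values stand as a description.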

How the data were processed

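Guide abundance was measured in genomic DNA of 8 MB157R libraries (GSI 3, DMSO 3, T0 2). Per the labels and the methods, the authors used bcl2fastq 2.19, FastQC 0.11.5 and the count command of MAGeCK 0.5.9.2, which assigns reads to guides. The deposited count table holds raw read counts per guide. The deposited normalized table holds a signal, the count times 1 constant per library, and served only as an alternative for levels.

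Computation used R 4.3.3, edgeR 4.0.16 (glmQLFit and glmQLFTest), limma 3.58.1 and, as an alternative, DESeq2 1.42.0. Guides with a mean count of at least 10 were kept, 116852 of 119461. Counts were scaled by median-ratio size factors, and each fit held the 2 groups compared. Genes with at least 4 tested guides were ranked by RRA (alpha 0.25) on one-sided guide p-values, with p from the exact distribution of the statistic for independent uniform ranks, and Benjamini-Hochberg adjustment over all genes of a side. Functions were tested on simulated data. Normalized counts are raw counts over size factors, and the pseudocount of levels is 1. Positions come from the GENCODE annotation of GRCh38, matched by symbol (17187 of 18570 genes) or through RefSeq synonyms.

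The members and lists were chosen with earlier results of these data known. All members are named, with values per library for the guide of lowest p in GSI against DMSO and in DMSO against T0. Of the 36 further genes, those with an unadjusted RRA p under 0.05 are named. Other guides were named after their values were seen. With 3 libraries against 3, an exact permutation test cannot give a p under 0.1, so none was run on levels. PCR reads without molecular identifiers are not independent molecules, and depth bears on counting error only.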

Additional observations from a re-analysis of the deposited data

How the results depend on the processing

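No member gene was called under any of 14 alternatives in GSI against DMSO or 13 in each comparison with T0, and no member guide was called in GSI against DMSO. Member guides called in DMSO against T0 were 1 with DESeq2 (6663 over all guides) and 0 to 3 when 1 library was left out. GSI against T0 gave 3 with DESeq2 (7913 over all guides) and 0 to 7 when 1 library was left out, with 7 without T0 replicate 1 (21128 over all guides) and 2 without T0 replicate 2 (5510 over all guides). The 3 in DMSO against T0 came without T0 replicate 1 (8327 over all guides). Those 3, against CDK4, CDK6 and RB1, had a count of 0 in T0 replicate 2 and were higher in DMSO. A lone T0 aliquot is assumed there to vary like the other group. The GSI level of RB1 was −0.06 with the deposited normalized table, against 0.04 here. All other levels moved by less than 1 SD.

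Same-numbered GSI and DMSO libraries had deviations from their group means that correlated at 0.280, 0.064 and 0.121. By these deviations each GSI library correlated best with the DMSO library of its number. The main fits did not take the numbers as pairs, and whether they mark shared handling was not tested. By rank correlation GSI replicate 2 was closest to DMSO replicate 1 (0.659, against 0.647 with DMSO replicate 2). With the replicate number as a block, 0 member genes and 0 member guides were called in each comparison. CDK6 in GSI against DMSO then stood at −0.20 (RRA p 0.0360, adjusted p = 0.956). Without the block it stood at −0.32 (RRA p 0.00228, adjusted p = 0.959).

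The spread between the 2 T0 aliquots limits both comparisons with T0, and leaving out 1 aliquot turned the sign of CDK4, CDK6, CCND2, CCND3, CDK2, RB1 or CDKN1B in at least 1 of them. Guides at 0 made up 5.12% and 11.5% of the T0 libraries, against 0.738% to 3.94% at day 14.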
